A study of Mus musculus with 27 samples.

Results

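Muscle from Gsdme KO mice was compared with WT muscle on day 7 (D7) after injury with cardiotoxin (CTX), a snake venom peptide that destroys muscle fibers and is followed by their regeneration. All 3 KO and all 3 WT libraries of that day were used, 6 of the 27 libraries of the series, and a gene was tested if it had at least 1 TPM in at least 3 of the 6, which left 13910 of 55852 table entries. TPM is the share of a library's transcripts that a gene holds, with gene length taken into account, so levels sum to 1 fixed total per library. Every group came from male mice with CTX injected into the muscle. The WT mice are named as C57BL/6J, and the KO allele is described as a whole-body one rather than one driven in a single cell type. The study describes crossing of heterozygotes to obtain littermates of both genotypes and names the gastrocnemius as the injected muscle. The age of the mice is not given in the sources used here. The sample titles say KO, whereas the genotype field says knockdown, and the series description says thigh for the injection site. Nothing in the labels says which animals were littermates or were handled together, and p-values measure only the spread between these libraries.

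Gsdme encodes gasdermin E, a protein that opens pores in the cell membrane once it has been cleaved and so turns a dying cell toward lytic death with release of its contents. About a week after CTX, satellite cells (the muscle stem cells) have proliferated and fused, new fibers with central nuclei carry embryonic and perinatal myosins that are being replaced by adult ones, and macrophages have moved from an inflammatory to a repair state. The D7 comparison asks how far this program differed between genotypes. On log2(TPM + 1), a difference of 1 is a doubling for an abundant gene and more than that for a gene at low TPM.

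The tissue label was checked first. Adult fast fiber genes dominated all 6 libraries, with a summed level of 170320 to 188987 TPM in WT and 199713 to 304673 TPM in KO. The targeted gene was lower but not absent in KO. Gsdme was at 2.51, 1.80 and 2.15 TPM in WT replicates 1 to 3 and at 1.37, 1.01 and 0.950 TPM in KO replicates 1 to 3, so the groups did not overlap (log2 difference -0.58, exact permutation p = 0.1, the smallest that 3 against 3 can give). TPM of a whole gene does not show which exons remain.

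KO replicate 2 stood apart from the other 5 libraries. It had 12849 genes with at least 1 TPM, against 13816 to 14294 in the others, and its 50 most abundant genes held 55.0% of its TPM, against 41.9% to 49.3%. Its Pearson's r across genes with the others was 0.946 to 0.964, whereas every other pair was at 0.976 or above. Relative to the other KO libraries, the 6 genes it had lowest by the rule for named genes were Postn, Aspn, C1qtnf3, Cthrc1, Sfrp2 and Myh3, which are stromal genes and an embryonic myosin. Periostin (Postn), a matrix protein of active fibroblasts, was at 90.5 TPM in it and at 798 and 566 TPM in KO replicates 1 and 3. C1qtnf3, a secreted protein, was at 10.9 TPM against 173 and 96.1 TPM, and Myh3, the embryonic myosin, was at 7.48 TPM against 106 and 72.6 TPM. Pfkfb3, a regulator of glycolysis, was higher in it, at 105 TPM against 18.4 and 34.0 TPM. The list medians below are therefore also given without KO replicate 2.

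No gene passed an adjusted p under 0.05 between KO and WT on D7 (limma, lowest adjusted p = 0.0578). At an unadjusted p under 0.05, 109 genes were higher in KO (0.784% of those tested) and 732 were lower (5.26%), 6.05% in either direction, where 695.5 genes would be expected. The 3 KO libraries lay above all WT libraries for 254 genes (1.83%) and below them for 2125 (15.3%). This imbalance moved with the scaling. The median difference over all genes was -0.20 on the log2 scale, and only 19% of genes had a fitted difference above 0. After median-of-ratios scaling the median was -0.00089, and 375 genes were higher (2.7%) and 409 lower (2.94%). Without KO replicate 2, 165 genes were higher (1.19%) and 432 lower (3.11%), the median was -0.08, and 3 entries passed (0.0216%), namely Plac9a, Tmem254a and 1810049J17Rik. Values are given below with the median of all genes in mind, and the words higher and lower describe levels, since no gene passed in the fit of 6 libraries.

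The 12 named genes with the lowest p among those higher in KO were Ppp1r3c, Arrdc2, Ddit4, Ucp3, Pim3, Cidec, Pdk4, Polr2m, Ces1d, Trim63, Txnip and Mlycd. Their adjusted p was 0.428 for Ppp1r3c, 0.511 for Arrdc2 and 0.544 for the others, and all 12 were chosen for their p and for groups that do not overlap, so the separation is a description. As background, FoxO factors and the glucocorticoid receptor are known to bind the promoter of Trim63, and its sequence is shown for that reason.

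The 250 bases before the annotated start of Trim63 (RefSeq, GRCm38.p6, chr4:134314870-134315119, plus strand) are printed with 2 matches in capitals, ACAGTCTGT, which matches the spaced palindrome ACANNNTGT of steroid receptors and begins 206 bases before the start, and TGTTTAC, the reverse complement of the FoxO motif GTAAACA, which begins 194 bases before it.
Trim63: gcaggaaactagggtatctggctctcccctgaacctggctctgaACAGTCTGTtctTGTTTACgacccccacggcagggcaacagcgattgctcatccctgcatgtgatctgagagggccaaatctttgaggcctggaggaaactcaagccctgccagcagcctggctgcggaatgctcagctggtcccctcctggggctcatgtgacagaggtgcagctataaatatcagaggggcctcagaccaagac
Both strands were searched. Promoters were found for 11 of the 12 genes, and Ces1d had no entry. GTAAACA was in 2 of the 11 (Trim63 and Txnip) and in 836 of 27025 promoters of the same length (3.09%), and ACANNNTGT was in the same 2 and in 1598 of 27025 (5.91%).

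Pdk4, the kinase that shuts pyruvate out of oxidation in the mitochondrion, had the largest difference of the 12. It was at 140.4, 85.8 and 74.2 TPM in WT and at 418, 182 and 275 TPM in KO (log2 difference 1.51, SE 0.336). Each KO library was above the highest WT library, and the spread within KO was wider than in WT. Arrdc2, an arrestin-domain protein known as a glucocorticoid-induced gene of muscle, was at 23.5, 17.2 and 20.7 TPM in WT and at 70.8, 65.2 and 40.2 TPM in KO (log2 difference 1.45, SE 0.23). Ddit4 (REDD1), an inhibitor of mTORC1 signaling, was at 38.4, 28.2 and 39.0 TPM in WT and at 99.7, 97.9 and 60.9 TPM in KO (log2 difference 1.25, SE 0.224). KO replicate 3 was the lowest KO library for both, and still above WT.

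Ppp1r3c, which targets protein phosphatase 1 to glycogen, differed by about as much in every library. Its level was 101, 129 and 109.9 TPM in WT and 232, 201 and 201 TPM in KO (log2 difference 0.90, SE 0.133). Ucp3, the mitochondrial uncoupling protein of muscle, was at 56.6, 49.3 and 42.1 TPM in WT and at 112, 74.7 and 88.4 TPM in KO (log2 difference 0.87, SE 0.181). Trim63 (MuRF1), the ubiquitin ligase that marks thick filament proteins for breakdown, was at 107, 88.7 and 75.4 TPM in WT and at 145, 152 and 126 TPM in KO (log2 difference 0.65, SE 0.155). KO replicate 2 was between the other KO libraries for Ppp1r3c, the lowest of the KO libraries for Ucp3 and the highest for Trim63.

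Txnip, which restrains glucose uptake, was 247 ± 11.7 TPM in WT and 342 ± 25.8 in KO (SD, n = 3 each), and Mlycd, which removes the malonyl-CoA that blocks fatty acid entry into mitochondria, was 30.3 ± 1.60 and 43.1 ± 3.61. Pim3, a serine/threonine kinase, had the narrowest WT values of the 12, at 13.2 ± 0.150 TPM against 20.1 ± 1.2 in KO. Cidec, a lipid droplet protein, was 3.38 ± 0.850 and 7.47 ± 1.27 TPM, and Ces1d, a carboxylesterase with triglyceride hydrolase activity, was 2.56 ± 0.360 and 6.89 ± 2.64. Polr2m, linked to RNA polymerase II, was 103 ± 2.46 and 173 ± 39.9 TPM. Leaving out KO replicate 2 changed the log2 difference of Polr2m from 0.72 to 0.54 and of Ces1d from 1.10 to 0.85, and that of Pdk4 from 1.51 to 1.80. After median-of-ratios scaling all 12 were further from 0, from 0.69 for Txnip to 1.73 for Pdk4.

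**Figure D1:**
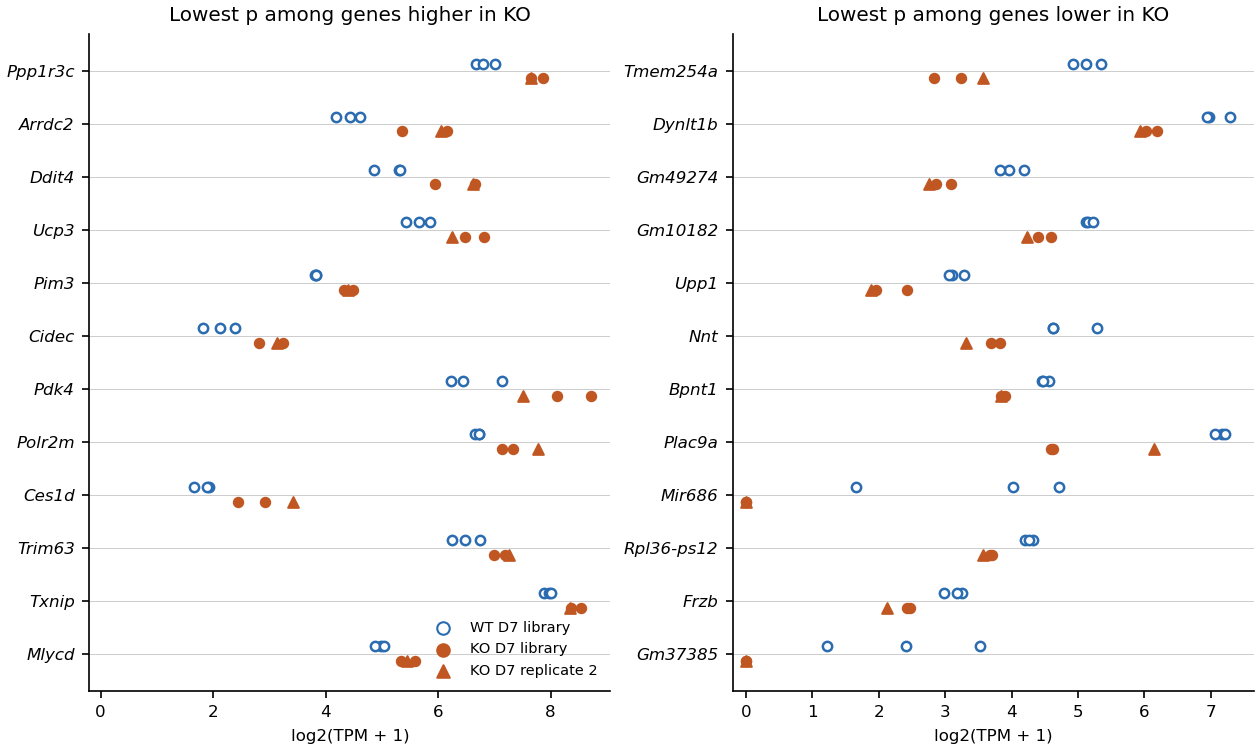
Each row is a gene and each point a D7 library on a log2(TPM + 1) axis, WT as open circles, KO as filled circles and KO replicate 2 as a triangle, with the 12 genes of lowest p higher in KO on the left and the 12 lower in KO on the right. By the rule that chose them no row overlaps. KO replicate 2 lies with the other KO libraries in most rows and above them for Plac9a (70.1 TPM against 23.1 and 23.5).

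D4 and D14 libraries took no part in choosing these genes. On D4, 11 of the 12 were higher in KO (median log2 difference 0.62), where 22.9% of all tested genes were higher and the median was -0.29. Arrdc2 and Ppp1r3c differed most there, by 1.89 and 1.74, and Polr2m was the exception at -0.38. On D14, 9 of the 12 were higher in KO with a median of 0.20, where 73.5% of all genes were higher and the median was 0.09. Pdk4, Ddit4 and Cidec differed by 0.56, 0.86 and 3.16 on D14, and Arrdc2 and Txnip by -0.37 and -0.32. The D4 libraries include KO D4 replicate 2, whose 50 most abundant genes held 51.1% of its TPM.

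Among the 12 genes with the lowest p that were lower in KO, Tmem254a and Plac9a had the largest differences of those above 0 in every library. Tmem254a (chr14:25923300-25927672, mm10), a small membrane protein, was at 39.6, 33.9 and 29.5 TPM in WT and at 6.12, 10.9 and 8.42 TPM in KO (log2 difference -1.92 with an SE of 0.213, limma adjusted p = 0.186). Plac9a (chr14:25887506-25903100, mm10), a small secreted protein first described in placenta, was at 143, 133 and 147 TPM in WT and at 23.1, 70.1 and 23.5 TPM in KO (log2 difference -2.03 with an SE of 0.39, adjusted p = 0.544). The KO replicate that differed for Plac9a was replicate 2. Without it Plac9a was at -2.54 (limma adjusted p = 0.000336) and Tmem254a at -2.10 (adjusted p = 0.0321). Over the alternatives that left out no library, the limma adjusted p of Plac9a ranged from 0.00013 to 0.752. The genes are neighbors in a duplicated region. In the GENCODE M21 transcripts, 72.9% of the 31-base words of Tmem254a were also in Tmem254b or Tmem254c, and 70.5% of those of Plac9a were in Plac9b, so reads could be assigned to another copy, and those copies were not analysed here. On D4, Plac9a was 90 ± 30.4 TPM in WT and 88 ± 27.7 in KO, and on D14 52.8 ± 27.1 and 50.9 ± 31.9.

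Dynlt1b, a light chain of the dynein motor, and Nnt, the mitochondrial transhydrogenase that makes NADPH, were lower in all KO libraries. Dynlt1b was at 155, 125 and 122 TPM in WT and at 64.2, 60.4 and 72.1 TPM in KO (log2 difference -1.02, SE 0.138). Nnt was at 23.6, 37.9 and 23.8 TPM in WT and at 13.2, 8.90 and 11.9 TPM in KO (log2 difference -1.24, SE 0.227). A deletion within Nnt is a known mark of the C57BL/6J substrain. That is the strain named for the WT mice, in which Nnt was higher than in KO. Strain variants at these loci were not tested. Of the 7 genes of the Dynlt1 cluster and Nnt, all 7 were fitted lower, where 19% of all genes were fitted higher, and 5 were lower at an unadjusted p under 0.05, against 5.26% of all genes (4 without KO replicate 2, against 3.11%). The neighboring Tmem181b-ps was one of them, at 7.63 ± 1.5 TPM in WT and 3.09 ± 1.04 in KO. The list was chosen with earlier results of these data known and holds close copies, so its counts are a description. The summed level of Dynlt1a, Dynlt1b, Dynlt1c and Dynlt1f, whose transcripts share 70.1% to 92.7% of their 31-base words with the other copies, was 203 ± 25.5 TPM in WT and 117 ± 11.8 in KO (exact permutation p = 0.1). The KO minus WT log2 difference of Dynlt1b was -1.29 on D4 and -0.79 on D14.

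Upp1, the enzyme that splits uridine, was at 8.76, 7.64 and 7.29 TPM in WT and at 2.88, 2.69 and 4.36 TPM in KO (log2 difference -1.06, SE 0.193). Bpnt1, a nucleotidase that clears the byproduct of sulfation, had narrow groups, at 22.7, 21.1 and 21.2 TPM in WT and at 14.0, 13.4 and 13.4 TPM in KO (log2 difference -0.64, SE 0.12). Frzb, a secreted Wnt antagonist, was 7.84 ± 0.827 TPM in WT and 4.10 ± 0.634 in KO. The pseudogene or short entries Gm49274, Gm10182 and Rpl36-ps12 were also lower, by log2 differences of -1.08, -0.76 and -0.62, and reads of such copies are easily shared with their parent genes. Mir686 and Gm37385, which meet the same rule, were listed at 0 in all 3 KO libraries and at 2.17 to 25.2 TPM and 1.32 to 10.5 TPM in WT.

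Genes of dividing cells had a lower median in KO than all genes did, and few of them differed beyond the spread. All 32 tested proliferation genes were fitted lower, against 19% of all genes fitted higher, with a median log2 difference of -0.59. Of these, 3 of 32 were under an unadjusted p of 0.05 (Tyms, Ube2c and Cdc20), where 5.26% of all genes were lower at that level, and 8 had all KO libraries below all WT libraries, where 15.3% of all genes did. Tyms, the thymidylate synthase of DNA replication, was at 12.7, 6.29 and 9.10 TPM in WT and at 4.33, 2.45 and 5.57 TPM in KO. Mki67, the general marker of cycling cells, was at 5.34, 3.54 and 2.84 TPM in WT and at 2.77, 0.920 and 2.75 TPM in KO. KO replicate 2 was the lowest library for both, and the KO groups without it began just under the lowest WT library for Mki67. Without it the list's median was -0.28, all 32 were still fitted lower (28.2% of all genes were then fitted higher) and 1 was under an unadjusted p of 0.05, and after median-of-ratios scaling it was -0.42.

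The 14 tested myogenic regulators were all fitted lower (median -0.36, and -0.26 without KO replicate 2), with 3 lower at an unadjusted p under 0.05 (background 5.26%) and 6 with all KO libraries below WT (background 15.3%). The 3 became 0 without KO replicate 2 and 1 after median-of-ratios scaling. Myf5, a satellite cell determination factor, was at 5.35, 2.01 and 2.27 TPM in WT and at 1.73, 0.970 and 1.41 TPM in KO. Myod1, which commits the cells to muscle, was at 36.9, 23.0 and 22.0 TPM in WT and at 15.1, 19.2 and 20.7 TPM in KO, and Spry1, a quiescence gene of satellite cells, was 27.9 ± 1.65 and 22.7 ± 0.793 TPM. Pax7, the defining satellite cell gene, was 2.75 ± 0.506 TPM in WT and 2.03 ± 0.170 in KO. The differences were small, and WT replicate 1 was the highest library for Myf5, Myod1 and Pax7. In bulk muscle, fewer cells of a type and less RNA per cell cannot be told apart.

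Embryonic and regenerating fiber genes had the lowest median of the muscle lists (-0.74 over 14 genes, and -0.39 without KO replicate 2), with 12 fitted lower and 1 under an unadjusted p of 0.05, which became 0 without KO replicate 2. The list's summed level did not share that direction, at 8965, 9234 and 6745 TPM in WT and at 8430, 10741 and 9114 TPM in KO. The gene under that level was Mest, an imprinted gene of growing tissue, at 337, 214 and 158 TPM in WT and at 155, 44.3 and 143 TPM in KO. Myh8, the perinatal myosin, was at 136 to 30.6 TPM in WT and 47.7 to 10.8 TPM in KO, and the groups overlapped. The sum of Myh3 and Myh8 was 175 ± 80.5 TPM in WT and 90.5 ± 68.0 in KO (exact permutation p = 0.3). Myh3 itself went from a log2 difference of -1.20 to -0.07 without KO replicate 2.

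Adult fast fiber genes went the other way. Of 18 tested, 16 were fitted higher, 3 were higher at an unadjusted p under 0.05 (background 0.784%, and 1 of 18 after median-of-ratios scaling) and 12 had all KO libraries above all WT libraries, where 1.83% of all genes did. The median log2 difference was 0.40, and 0.19 without KO replicate 2. Myh4, the myosin of the fastest fibers, was at 3182, 4141 and 3532 TPM in WT and at 4568, 9085 and 4594 TPM in KO, and Mybpc2, the fast myosin-binding protein C, was at 1053, 1285 and 1127 TPM in WT and at 1482, 2409 and 1475 TPM in KO. Actn3, the fast alpha-actinin, was 2072 ± 162 and 3498 ± 1585 TPM. KO replicate 2 was the highest library for all 3, and the other KO libraries were still above WT. The 2 members fitted lower were Myh1 and Myh2. Myh1, the myosin of intermediate fast fibers, was at 1173, 1170 and 1181 TPM in WT and at 1091, 410 and 816 TPM in KO (log2 difference -0.72), and Myh2, the myosin of oxidative fast fibers, named after its values were seen, had a log2 difference of -0.68. Slow fiber genes had a median of -0.10, which changed sign under median-of-ratios scaling (0.13), and was -0.028 without KO replicate 2, with 0 of 12 under an unadjusted p of 0.05, and Tnni1, the slow troponin I, was 324 ± 86.0 TPM in WT and 215 ± 61.0 in KO.

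Macrophage genes were lower on the whole, with KO replicate 2 carrying much of the difference. All 15 pan-macrophage and leukocyte genes were fitted lower (median -0.62, and -0.29 without KO replicate 2), with 2 lower at an unadjusted p under 0.05 (background 5.26%), which became 0 without that library. The summed level was 1188 to 1507 TPM in WT and 525 to 1155 TPM in KO. Adgre1 (F4/80) was at 39.5, 33.6 and 42.2 TPM in WT and at 33.8, 16.5 and 33.0 TPM in KO, whereas Itgam (CD11b) was 11.1 ± 0.926 and 7.49 ± 2.47 TPM. All 15 lipid-associated macrophage genes were fitted lower as well (median -0.62, and -0.31 without KO replicate 2). Trem2, a lipid receptor of phagocytes, was at 82.9, 46.4 and 38.2 TPM in WT and at 35.7, 11.9 and 31.6 TPM in KO. Spp1 (osteopontin) was at 112, 70.3 and 21.2 TPM in WT and at 26.5, 8.26 and 21.2 TPM in KO, and its groups overlapped. WT replicate 1 was the highest library for both.

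Resident macrophage genes did not share that direction. Of 12 tested, 5 were fitted higher, where 19% of all genes were. The median was -0.09, which was 0.14 without KO replicate 2 and 0.13 after median-of-ratios scaling. At an unadjusted p under 0.05, 1 was higher and 1 lower (background 0.784% and 5.26%). Without KO replicate 2, 3 were higher and 0 lower at that level (background 1.19% and 3.11%). After median-of-ratios scaling, 4 were higher and 1 lower (background 2.7% and 2.94%). Cd163, a scavenger receptor of resident macrophages, was at 10.5, 9.56 and 9.85 TPM in WT and at 19.3, 7.57 and 17.3 TPM in KO, so that KO replicates 1 and 3 were above WT and replicate 2 below it. Lyve1 was 6.53 ± 1.42 and 5.55 ± 2.25 TPM. Txnip, described above, was the 1 higher member in the fit of 6 libraries, at a level far above Cd163 and Lyve1. Retnla, an alternative activation gene also on this list, was lower in all KO libraries (225 ± 70.0 TPM in WT and 128 ± 43.1 in KO). Recruited monocyte and inflammatory genes had a median of -0.69 over 11 genes, but of -0.06 without KO replicate 2, and Ccr2, the monocyte homing receptor, was at 9.73, 8.04 and 7.54 TPM in WT and at 7.23, 2.39 and 6.01 TPM in KO. The interferon-stimulated genes behaved alike, with a median of -0.40 over 16 genes and of 0.08 without KO replicate 2.

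Immediate early genes, which cells switch on within minutes of a stimulus, were the list with the most members under an unadjusted p of 0.05. Of 24 tested, 11 were lower and 1 higher at that level, against 5.26% and 0.784% of all genes, and 14 had all KO libraries below all WT libraries, against 15.3%. The median log2 difference was -0.48, and it was -0.26 without KO replicate 2, where 9 were lower at that level (background 3.11%). Jun, a subunit of AP-1, was at 48.8, 50.04 and 50.6 TPM in WT and at 35.7, 29.9 and 38.1 TPM in KO (log2 difference -0.52, SE 0.129). Egr3, a zinc finger factor induced by activity, was at 2.75, 1.70 and 2.59 TPM in WT and at 0.720, 0.480 and 1.18 TPM in KO (log2 difference -0.90, SE 0.222). Fos, the partner of Jun, was at 9.35, 10.7 and 7.11 TPM in WT and at 5.76, 3.37 and 6.93 TPM in KO, so the nearest libraries of the 2 groups almost met. Ier3 was 13.8 ± 1.83 TPM in WT and 7.83 ± 2.05 in KO. The member that was higher, named after its values were seen, was Nr4a1, an orphan nuclear receptor, at 45.8, 64.9 and 72.2 TPM in WT and at 79.0, 140.2 and 83.3 TPM in KO.

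The Jun promoter is shown because both groups of Jun libraries were narrow and because AP-1 and related factors are known to act on their own gene there. The 250 bases before its start (RefSeq, GRCm38.p6, chr4:95052223-95052472, minus strand, printed in the direction of transcription) hold TGACATCA, in capitals, a match to TGACNTCA that begins 45 bases before the start.
Jun: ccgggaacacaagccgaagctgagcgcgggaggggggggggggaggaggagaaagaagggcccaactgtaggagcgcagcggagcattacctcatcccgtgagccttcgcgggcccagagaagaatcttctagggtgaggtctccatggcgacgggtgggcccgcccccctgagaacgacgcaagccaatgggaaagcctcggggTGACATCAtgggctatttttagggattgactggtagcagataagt
Promoters were found for 19 of the 25 listed genes, and Egr1, Egr3, Ier2, Klf10, Myc and Ccn2 had no entry. TGACNTCA was in 4 of the 19 on either strand (Btg2, Dusp1, Jun and Klf6) and in 2052 of 27025 promoters of the same length (7.59%). Jun and Klf6 were lower in all KO libraries, whereas Dusp1 was not.

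**Figure D2:**
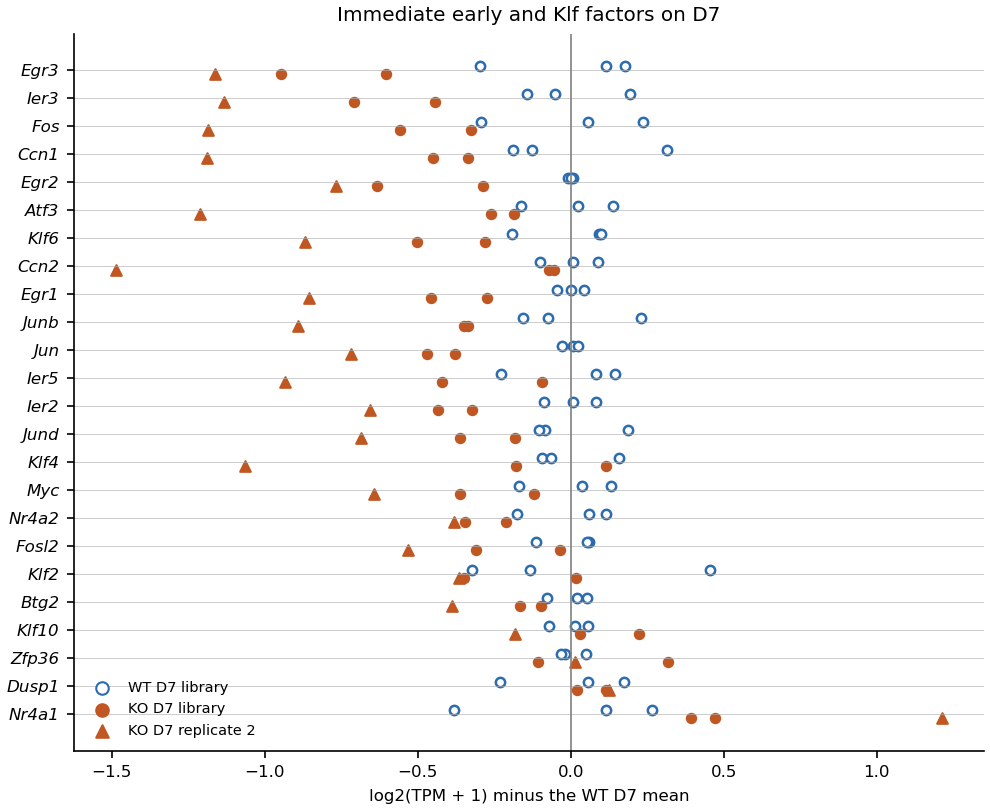
Each row is an immediate early or Klf gene and each point a D7 library, as log2(TPM + 1) minus the WT D7 mean of that gene, with WT as open circles, KO as filled circles and KO replicate 2 as a triangle. KO libraries lie left of all WT libraries in 14 of 24 rows, KO replicate 2 is the lowest library in most of them, and Nr4a1 is the row with all KO libraries on the right.

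Heat shock genes, the chaperones of unfolded protein, were fitted lower in 12 of 12 cases, where 19% of all genes were fitted higher. At an unadjusted p under 0.05, 4 were lower (Hspa1b, Dnajb1, Hsph1 and Dnaja1, the last named after its values were seen), against 5.26% of all genes. The median was -0.39, and without KO replicate 2 it was -0.20 with 2 lower at that level (background 3.11%). Hspa1b, the inducible Hsp70, was at 12.7, 15.3 and 11.0 TPM in WT and at 8.22, 3.89 and 9.51 TPM in KO. Of 13 tested genes of gasdermins and pyroptosis, all were fitted lower and 5 were lower at that level (background 5.26%), Gsdme among them, which became 3 without KO replicate 2 (background 3.11%) and 3 after median-of-ratios scaling (background 2.94%). Casp4 was 3.64 ± 0.400 TPM in WT and 2.04 ± 1.00 in KO, and Pycard (ASC, the inflammasome adaptor) was at 12.2, 7.58 and 8.16 TPM in WT and at 5.32, 1.74 and 6.61 TPM in KO. Casp1, named after its values were seen, was 3.14 ± 0.107 and 1.78 ± 0.892 TPM. Gsdmd, the gasdermin cut by inflammatory caspases, was 13.8 ± 2.05 and 11.2 ± 2.02 TPM and its groups overlapped. Without KO replicate 2 the median moved from -0.37 to -0.25. Genes of myeloid cells were lower in the same libraries, and their part in the values of Casp1, Casp4 and Pycard was not tested.

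Several lipid storage genes were higher in KO, whereas the fatty acid oxidation list had a median near 0. Of 20 adipocyte and lipid storage genes tested, 6 were higher at an unadjusted p under 0.05, against 0.784% of all genes, and 0 were lower. The 6, which also had no overlap, were Cidec, Plin1, Cfd, Lipe, Plin4 and Adipoq, with Lipe and Plin4 named after their values were seen. Of the 20, 12 were fitted higher, where 19% of all genes were, and 8 were fitted lower. All KO libraries were below all WT libraries for 1 of them, where 15.3% of all genes were. The median was 0.16, and 0.14 without KO replicate 2, where 6 were higher at that level (background 1.19%). Plin1, the coat protein of adipocyte lipid droplets, was at 3.71, 2.70 and 3.90 TPM in WT and at 7.30, 5.66 and 4.95 TPM in KO (log2 difference 0.65, SE 0.198). Cfd (adipsin), secreted by adipocytes, was at 105, 74.3 and 118 TPM in WT and at 195, 164 and 124 TPM in KO (log2 difference 0.69, SE 0.224). Adipoq (adiponectin) was at 9.41, 7.41 and 10.1 TPM in WT and at 16.1, 12.2 and 10.9 TPM in KO, Lipe (hormone-sensitive lipase) was 12.3 ± 1.35 and 17.1 ± 2.17 TPM, and Plin4 was 35.2 ± 7.18 and 51.4 ± 8.42 TPM. The lowest KO library was only just above the highest WT library for Cfd and Adipoq. On D14 the same KO minus WT difference was 3.33 for Adipoq, 3.56 for Cfd and 2.73 for Plin1, against 0.49, 0.69 and 0.65 on D7. The D7 minus D14 difference did not pass in a fit of all 24 injured libraries (Adipoq, adjusted p = 0.78).

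Of 18 fatty acid oxidation genes, 2 (Ucp3 and Pdk4, both among the 12 above) were higher at an unadjusted p under 0.05, against 0.784% of all genes. Of the 18, 13 were fitted lower, where 19% of all genes were fitted higher. The list's median was -0.04, against -0.20 for all genes. It was 0.014 without KO replicate 2 and 0.18 after median-of-ratios scaling. The 44 nuclear genes of oxidative phosphorylation had a median of -0.10, of -0.09 without KO replicate 2 and of 0.13 after median-of-ratios scaling, and 0 were under an unadjusted p of 0.05, among them Ndufa5 of complex I at 461 ± 17 TPM in WT and 371 ± 57.8 in KO. The 13 mitochondrially encoded genes had a median of -0.18, and of -0.016 without KO replicate 2, and 1 was lower at that level (0 after median-of-ratios scaling), mt-Atp6, at 925 ± 24.1 and 666 ± 194 TPM. Glycolysis and glycogen genes had a median of 0.30, and 0.11 without KO replicate 2. Pygm, the muscle glycogen phosphorylase, was at 1561, 1836 and 1747 TPM in WT and at 2099, 3492 and 2010 TPM in KO, and Gbe1, the glycogen branching enzyme, was the member lower at that level, at 23.7 ± 2.12 and 17.02 ± 1.69 TPM. Atrophy and FoxO genes had a median of 0.18, and 0.14 without KO replicate 2. Of 11 tested 3 were higher at that level (background 0.784%), Trim63, Bnip3 (a mitophagy receptor, 113 ± 7.40 TPM in WT and 136 ± 7.96 in KO) and Mt2, a metallothionein, which was 81.7 ± 19.2 and 140.4 ± 46.8 TPM with overlapping groups.

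Among stromal lists, the values of collagen and matrix genes depended on KO replicate 2. All 20 were fitted lower with a median of -0.50, none was under an unadjusted p of 0.05 (0 of 20), and without that library 10 were fitted higher and the median was 0.01. Tnc, a matrix protein of regenerating tissue, was at 109, 41.7 and 29.5 TPM in WT and at 39.4, 10.3 and 35.1 TPM in KO. Fibro-adipogenic progenitor genes had a median of -0.11 (0.08 without KO replicate 2 and 0.10 after median-of-ratios scaling), and Wif1, a Wnt inhibitor, was the member higher at an unadjusted p under 0.05, at 3.29, 4.02 and 4.02 TPM in WT and at 5.02, 6.22 and 5.16 TPM in KO. Endothelial genes had a median of -0.20, as did all genes (-0.13 without KO replicate 2 and 0.02 after median-of-ratios scaling), and Emcn was lower in all KO libraries (30.4 ± 6.15 and 21.8 ± 3.58 TPM). Cnn1, calponin of smooth muscle, had narrow groups, at 4.48, 4.45 and 4.84 TPM in WT and at 2.00, 2.22 and 2.25 TPM in KO (log2 difference -0.82, SE 0.151, limma adjusted p = 0.544), while the 7 smooth muscle genes had a median of -0.13 (-0.21 without KO replicate 2 and 0.05 after median-of-ratios scaling) and their summed level overlapped, at 1322 to 1489 TPM in WT and 1281 to 1439 TPM in KO. On D4 and D14 the difference of Cnn1 had the other sign (0.50 and 0.63).

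Genes of red blood cells had lower levels in the KO libraries, and their count at an unadjusted p under 0.05 depended on the scaling. All 5 tested erythrocyte genes were lower at an unadjusted p under 0.05 (Hba-a1, Hba-a2, Hbb-bs, Hbb-bt and Alas2, the latter pair named after their values were seen), against 5.26% of all genes, with a median of -0.85. Without KO replicate 2 the median was -1.01 and all 5 were under that level. With quantile normalization, with median-of-ratios scaling and with the abundant genes left out, 0 of 5 were under it, and the medians were -0.70, -0.62 and -0.71. The summed globins were at 1986, 2651 and 3832 TPM in WT and at 1196, 1894 and 1518 TPM in KO (exact permutation p = 0.1), so each KO library was below every WT library. Erythrocyte content of the piece of muscle is not known, and its part in other differences was not tested. Markers of organs outside muscle were at trace levels, with 1 of 11 acinar pancreas, 2 of 7 epidermis and 1 of 6 liver genes tested and summed levels of 1.16 to 4.19, 4.12 to 11.5 and 1.98 to 5.82 TPM over both groups, and 3 pancreas and 2 epidermis genes were listed at 0 in all 6 libraries.

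**Figure D3:**
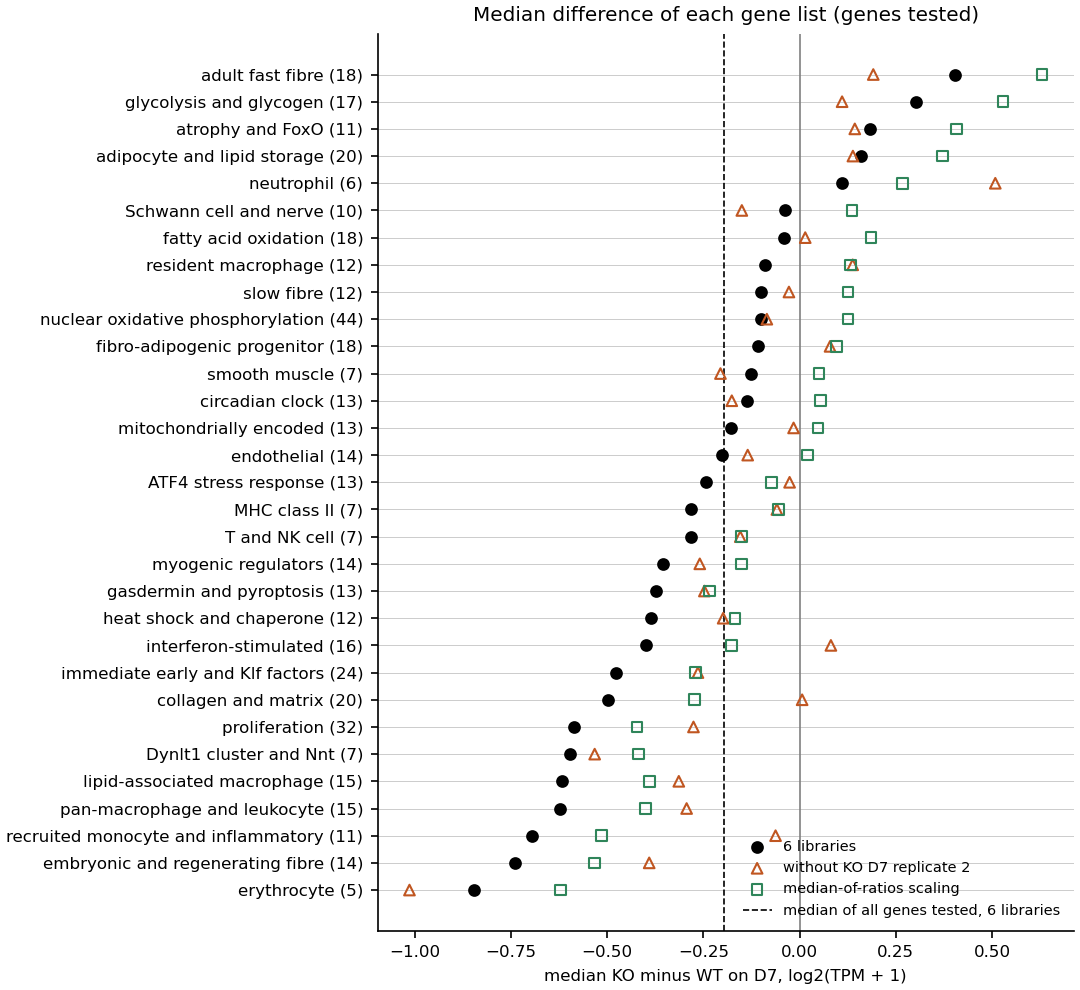
Each row is a gene list with the number of genes tested, and the marks are the median KO minus WT log2 difference over 6 libraries (filled circles), without KO replicate 2 (open triangles) and after median-of-ratios scaling (open squares). The dashed line is the median of all genes tested (-0.20). Adult fast fiber genes are highest (0.40) and erythrocyte genes lowest (-0.85), and collagen and recruited monocyte lists move to near 0 without KO replicate 2.

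Each D7 library was also measured on the genes that differ between early and late WT muscle. The WT D4 and WT D14 libraries, which are not part of the D7 comparison, gave 895 genes higher (6.43%) and 7838 lower (56.3%) on D14 (limma, adjusted p under 0.05). On D7 the 895 had a median KO minus WT difference of 0.06 with 58.4% fitted higher in KO, and the 7838 had a median of -0.24 with 8.84% fitted higher. Over all genes tested the median was -0.20 with 19% fitted higher, so the 7838 lay close to the shift of all genes. Without KO replicate 2 the medians of the lists were 0.02 and -0.10, against -0.08 for all genes. On a scale with WT D4 at 0% and WT D14 at 100%, the WT D7 libraries were at 41.9%, 52.8% and 58.5% and the KO D7 libraries at 54.8%, 78.8% and 57.9%. KO replicates 1 and 3 were inside the WT D7 range, and only replicate 2 was beyond it. The WT D1 libraries were at 42.3%, 13.9% and 65.2%, so the scale did not order libraries by day. The 50 most abundant genes held 25.4% to 35.0% of TPM in WT D4 and 57.3% to 61.4% in WT D14. The part of this share in the scale was not tested. Across genes, which are not independent replicates, the D7 difference correlated with the WT change from D4 to D14 at Pearson's r of 0.433 (13910 genes), and at 0.185 without KO replicate 2.

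**Figure D4:**
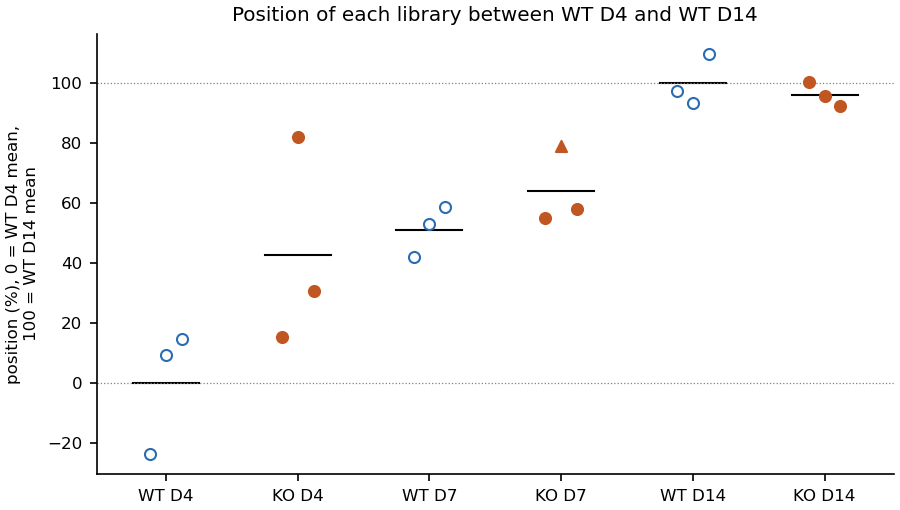
Each point is a library, with its position in percent between the WT D4 mean (0) and the WT D14 mean (100), WT as open and KO as filled symbols, KO D7 replicate 2 as a triangle and group means as black lines. The D7 groups overlap except for KO D7 replicate 2 at 78.8%, and 1 KO D4 library lies at 81.8%. Libraries of D1 are not drawn.

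Whether the genotype difference on D7 was unlike that of the neighboring days was tested in a fit of all 24 injured libraries. No gene passed for D7 minus D4 (lowest adjusted p = 0.924, 357 genes or 2.57% at an unadjusted p under 0.05) or for D7 minus D14 (lowest adjusted p = 0.78, 434 genes or 3.12%). The genes of lowest p against D4 were E130208F15Rik (KO minus WT 0.33 on D7 and -0.88 on D4), Rab22a, a small GTPase of endosomes (0.37 and -0.76), and a second entry named Ddit3 (ENSMUSG00000116429), at 102, 10.7 and 177 TPM in WT and at 0, 41.5 and 58.5 TPM in KO. Against D14 they were Pcnx (-0.46 on D7 and 0.58 on D14), Scd1, the stearoyl-CoA desaturase (0.17 and 2.93), and Nudt18, a nucleotide hydrolase. Scd1 was at 22.1, 21.4 and 25.5 TPM in WT and at 30.5, 23.1 and 24.8 TPM in KO on D7, so the groups overlapped on that day.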

How the data were processed

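RNA-seq of mouse muscle was analysed from the deposited TPM values, which the authors made per gene and library from paired-end reads of SMARTER mRNA libraries. The labels name mm10, and the aligner and counting tool are not given in the sources used here. TPM carries no read number, so depth is unknown and no interval was computed. Strand use is not stated, and reads of overlapping genes or close copies may be shared. The 6 D7 libraries were grouped by sample title and fitted as log2(TPM + 1) with limma 3.58.1 (R 4.3.3, variance trend, Benjamini-Hochberg over 13910 genes, at least 1 TPM in at least 3 libraries). All limma p-values are two-sided, as are the exact permutation tests. Alternatives were a pseudocount of 0.1, a minimum of 5 TPM, no filter, median-of-ratios scaling, quantile normalization, removal of the 50 most abundant and the mitochondrial genes, no variance trend, quality weights, all 24 injured libraries, a replicate block and each library left out. The fit was tested on simulated data. Named genes were Gsdme, the Dynlt1 cluster and Nnt, the 12 of lowest p in each direction (gene name, mean of at least 5 TPM, no overlap), and in each list the first 2 tested and the 3 of lowest p. For KO replicate 2 they were those furthest from the other KO libraries, and for day differences the 3 of lowest p. Members and lists were chosen with earlier results of these data known. Duplicate symbols were read from the oldest Ensembl ID. Pooled mean columns and the authors' repeated WT D1 columns were not used. Promoters came from RefSeq, coordinates from GENCODE M21. One member of the gasdermin and pyroptosis list is counted but not reported by name here.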

Additional observations from a re-analysis of the deposited data

How the results depend on the processing

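The number of genes called on D7 (limma) was 0 in the fit of 6 libraries. It was 1 with the abundant genes removed, 1 without the variance trend, 612 with library quality weights and 0 to 3 with each library left out. Genes lower at an unadjusted p under 0.05 numbered 732 of 13910 tested. They were 432 of 9519 with a minimum of 5 TPM, 1071 of 28149 with no filter and 445 of 13853 with abundant genes removed. In fits of all 13910, there were 409 with median-of-ratios scaling, 388 with quantile normalization, 2781 with quality weights and 361 with all 24 libraries. Genes higher numbered 109 of 13910. They were 69 of 9519 with a minimum of 5 TPM, 204 of 28149 with no filter and 273 of 13853 with abundant genes removed. In fits of all 13910, there were 375 with median-of-ratios scaling, 434 with quantile normalization, 887 with quality weights and 62 with all 24 libraries. With each library left out there were 252 to 1491 lower (252 without WT replicate 1, 1491 without KO replicate 1) and 63 to 165 higher. The cause was not tested. The quality weights ran from 0.128 for KO replicate 2 to 7.37 for KO replicate 3, so that few libraries carried that fit.

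The labels do not say whether libraries of the same replicate number belong together. Deviations within a group depend on each other, so their correlations cannot decide it. The deviations of WT and KO libraries of the same number correlated at 0.21, 0.01 and -0.10, WT replicate 3 correlated best with KO replicate 2 (0.24), and with a replicate block 1347 genes were lower and 134 higher at an unadjusted p under 0.05, with 0 called.

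For the difference between days, 4 genes passed against D4 and 1 against D14 with no filter, and 2266 and 3 with quality weights. The median on D7 of the genes higher in WT on D14 was 0.26 with median-of-ratios scaling, 0.23 with quantile normalization and 0.19 with abundant genes removed. For the genes lower in WT on D14 it was -0.048, -0.049 and -0.13 in the same order, against -0.24 in the fit of 6 libraries. Sfrp2 ran from -0.83 to 0.66 with each library left out, above 0 without KO replicate 2 (0.66) and without WT replicate 1 (0.09), and was 0.63 with quality weights. Cthrc1 ran from -1.28 to 0.15, above 0 without KO replicate 2 (0.15), and was 0.10 with quality weights. The second entry named Ddit3 did not keep its direction with quality weights. Those weights were highest for WT replicate 2 (4.23) within WT and for KO replicate 3 (7.37) within KO. No other named gene was counted as changing direction in an alternative run, though that count can miss a change of sign. Depth is unknown, so it cannot be said which low values are near the limit of detection.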

Other observations

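Lists not described above stayed close to the median of all genes (-0.20) or rested on few genes. T and NK cell genes had a median of -0.28 over 7 genes with 1 lower at an unadjusted p under 0.05 (-0.15 and 0 without KO D7 replicate 2), and MHC class II genes also had a median of -0.28, over 7 genes, which was -0.06 without KO D7 replicate 2. Genes of the ATF4 stress response had a median of -0.24 over 13 genes, and of -0.026 without that library, and 0 were under that level in either fit. Circadian clock genes had a median of -0.14 over 13 genes with 1 lower at that level, and of -0.18 without that library. Schwann cell and nerve genes had a median of -0.04 over 10 genes, and of -0.15 without that library. Neutrophil genes had a median of 0.11 over 6 genes, of 0.51 without KO D7 replicate 2 and of -0.15 without KO D7 replicate 1. Their summed level was 16.8, 42.0 and 14.5 TPM in WT and 79.0, 12.5 and 17.8 TPM in KO. The lists for B cells (2 genes tested) and brown adipocytes (1 gene tested) were too short to describe.

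The entry of lowest p on D7 was 1810049J17Rik (chr15:12321438-12321899), named after its values were seen, which was listed at 0 in all 3 WT libraries and was at 2.92, 3.21 and 4.37 TPM in KO (limma adjusted p = 0.0578). On D4 its mean was 6.58 ± 1.68 TPM in WT and 1.90 ± 1.75 in KO (n = 3 each), the opposite order, and on D14 1.46 ± 1.5 and 0.530 ± 0.460. Gm37421, a processed pseudogene that passed only without WT D7 replicate 3, was listed at 0 in WT replicates 1 and 2 and at 183 TPM in replicate 3, and was at 101, 185 and 70.6 TPM in KO.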
